A study of Mus musculus with 12 samples.

Results

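The RNA of purified brain myelin was compared between 24 months and postnatal day 18 (P18) in wild type mice, so that the youngest and the oldest myelin of the series stand against each other. All mice were male and of the strain c57Bl6/N, wild type and without any treatment named in the labels. Each library holds the total RNA of the light-weight, myelin-enriched membrane fraction of mouse brain, with 3 libraries at P18 and 3 at 24 months. The study names individual brains for the libraries of 6 months, and the replicates of the other ages are taken here as separate mice. The ages of 75 days (P75) and 6 months, with 3 libraries each, are used here only for the order in which genes passed from the youngest to the oldest age. Of the 21937 genes in the table, 14634 had a mean normalized read count of 10 or more over the 12 libraries and were compared, while 3103 of the other 7303 were at 0 in every library. Around this limit, Nrl and Xlr3b lay just inside with a mean of 10.012 each, and Sntb1 and Cd46 just outside with 9.9967 and 9.9917. A normalized read count is the number of reads on a gene divided by a size factor of the library and is not corrected for transcript length, so levels are compared only within a gene. Differences are on the scale of log2(normalized read count + 1), which understates the change of genes with few reads, and fold changes are these differences without the log.

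Myelin is the stack of membrane that oligodendrocytes wrap around axons so that impulses travel fast. It is built of a few very abundant proteins, such as myelin basic protein (Mbp), and of a large share of cholesterol and galactolipids. Around P18 the mouse brain is in the middle of myelination, with many newly formed oligodendrocytes, whereas the adult brain maintains its sheaths and the aged brain is known for activated microglia, complement and lysosomal material in white matter. The fraction is enriched for myelin but is not free of membrane and RNA of neurons, astrocytes, microglia and vessels, and in such bulk samples fewer cells of a type and less RNA per cell cannot be told apart.

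The libraries held 20579740 to 23770173 reads on genes at P18 and 21565600 to 24541436 at 24 months. The defining markers of the labelled fraction were present throughout, with Mbp as the gene of highest normalized read count in every library and Cnp at a mean of 36481 ± 7996 (SD, n = 3) at P18 and 8101 ± 467 at 24 months. Mbp took 9.47% to 20.8% of the reads at P18 and 5.34% to 7.52% at 24 months. The P18 libraries differed among themselves, with replicate 3 apart. Over the genes compared, log2 values correlated at 0.993 between replicates 1 and 2, and at 0.986 and 0.987 between these and replicate 3. Replicate 3 had lower values of the mature oligodendrocyte genes Mbp and Ugt8a than replicates 1 and 2. It also had lower values of the astrocyte gene Gfap and the microglial gene P2ry12.

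Between P18 and 24 months 10092 of the 14634 genes (69.0%) differed at a false discovery rate of 0.1, in a limma fit on log2(normalized read count + 1) over the 12 libraries with Benjamini-Hochberg adjustment. Of these, 5077 (34.7% of the genes compared) were higher at 24 months and 5015 (34.3%) were lower. Which direction had more calls depended on the scaling, with 5353 rises and 3967 falls when each library was scaled to the same total and 4376 and 5952 under quantile normalization. The median difference of all genes was -0.01 on this log2 scale, of the genes that rose 0.87 and of the genes that fell -0.52. The larger changes were mostly rises. A change over 2-fold was found for 2699 genes (18.4%), of which 2116 (14.5%) rose and 583 (3.98%) fell, so that 78.4% of these genes were higher in the old mice. Over 4-fold, 272 genes rose and 69 fell. The share of rises among the 2-fold changes depended on the scaling and was 66.1% under quantile normalization, with 1695 rises and 871 falls. In 9746 genes (66.6%) all 3 libraries of one age lay beyond all 3 of the other.

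**Figure D1:**
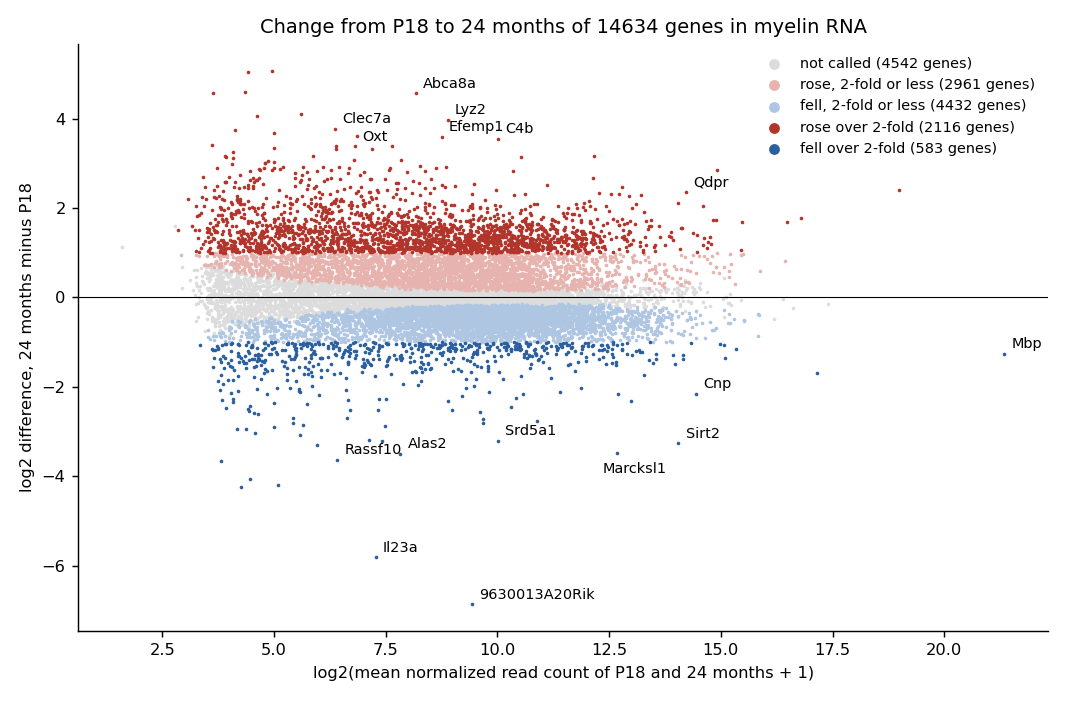
Each point is 1 of 14634 genes, with the log2 of the mean normalized read count of both ages plus 1 on the horizontal axis and the log2 difference of 24 months minus P18 on the vertical axis, coloured by the limma call. The 2116 genes that rose over 2-fold are spread over all levels and outnumber the 583 that fell over 2-fold, while the deepest falls are those of 9630013A20Rik and Il23a.

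The genes with the largest rises, among those with a mean over 100 at one of the 2 ages and libraries that do not overlap, encode a lipid transporter, lysozymes, a receptor of myeloid cells, complement, matrix proteins and a neuropeptide. Abca8a, an ATP-binding cassette transporter of a subfamily that moves lipids (chr11:109886948-109957292, minus strand, 39 merged exons, NCBIM37/mm9), had normalized read counts of 26.1, 26.0 and 15.1 in the P18 libraries and 413, 549 and 694 at 24 months. Its lowest library at 24 months was far above the highest at P18, and the rise was 23.8-fold, a log2 difference of 4.57 ± 0.20 (SE; limma, adjusted p = 1.07e-10). Lyz2, the lysozyme of macrophages and microglia (chr10:116714390-116719377, minus strand, 4 merged exons), had 68.9, 48.6 and 49.2 at P18 and 699, 870.4 and 1099 at 24 months, a rise of 3.97 ± 0.17 (limma, adjusted p = 5.99e-11). Its near-identical neighbour Lyz1 also rose, by 3.32 ± 0.23 from 28.5, 26.0 and 22.1 to 221, 275 and 296, and since reads may be shared between these copies the split between them is uncertain. Clec7a, the beta-glucan receptor dectin-1 of myeloid cells, was near 10 reads at P18, with 14.3, 10.2 and 7.03, and rose to 136, 143 and 178, by 3.78 ± 0.29.

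C4b, the complement component that is cleaved after C1 is activated (chr17:34865325-34880827, minus strand, 40 merged exons), rose 11.7-fold, from 153, 136 and 199.9 at P18 to 1851, 1792 and 2038 at 24 months (log2 3.55 ± 0.17; limma, adjusted p = 2.8e-10). It also has a near-identical copy in the mouse genome, so its count is uncertain to that extent. Efemp1, which encodes the matrix glycoprotein fibulin-3, had 87.9, 71.2 and 42.2 at P18 and 673, 849.8 and 858 at 24 months. Prg4, which encodes the lubricating proteoglycan lubricin and overlaps Tpr, had 35.6, 28.2 and 37.2 against 393, 350.3 and 341. The log2 differences of these 2 matrix genes were 3.60 ± 0.19 and 3.39 ± 0.14, and neither overlapped between the ages. Oxt, the precursor of the neuropeptide oxytocin, rose by 3.39 ± 0.24 from 11.9, 26.0 and 20.1 to 169, 221 and 221. The imino acid transporter gene Slc6a20a, which overlaps Ccr9, rose by 3.40 ± 0.23, and the long intergenic RNA 4930581F22Rik, which overlaps Dcps and St3gal4, by 3.61 ± 0.19.

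The deepest falls were in a noncoding RNA of newly formed oligodendrocytes, a cytokine subunit, regulators of the cytoskeleton and enzymes. The long noncoding RNA 9630013A20Rik, known as a marker of newly formed oligodendrocytes, had 1370.1, 1516 and 1199 at P18 and 7.93, 11.9 and 12.96 at 24 months, a fall of 116-fold (log2 -6.86 ± 0.22; limma, adjusted p = 5.22e-12). Il23a, the p19 subunit of interleukin-23 (chr10:127733196-127735140, minus strand, 4 merged exons), had 317, 316 and 277 against 2.97, 7.57 and 3.70, a log2 difference of -5.81 ± 0.31. At 24 months both were at the level of a few reads, so their fold changes rest on small counts at that age. Marcksl1, a regulator of actin at the cell membrane (chr4:129190825-129193229, plus strand, 2 merged exons), fell 11.2-fold from 11509.7, 12062 and 12315 to 1063, 1013 and 1130.2 (log2 -3.48 ± 0.08; limma, adjusted p = 5.46e-14). Sirt2, the NAD-dependent deacetylase of the myelin sheath (chr7:29551754-29573684, plus strand, 16 merged exons, overlapping Nfkbib), fell 9.53-fold from 27874, 36774 and 27628 to 3248, 3189.6 and 3158.

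The other large falls were in genes of varied function. Srd5a1, the steroid 5-alpha-reductase that makes neurosteroids, fell by 3.20 ± 0.18 on the log2 scale from 1911, 2476 and 1204 to 197, 213 and 173. Alas2, the erythroid form of the first enzyme of heme synthesis, had 472, 362 and 414 at P18 and 36.6, 38.9 and 32.4 at 24 months. Its 3 values at P18 were all above 360 and its 3 values at 24 months all below 39, on a gene that overlaps Apex2. Kif19a, a kinesin, differed by -3.21 ± 0.16, Rassf10, a Ras association domain protein, by -3.62 ± 0.24, the integrin alpha D gene Itgad by -3.30 ± 0.45 and 5430435G22Rik by -3.19 ± 0.25. Mbp itself was lower at 24 months, with 3686428, 5580858 and 2134344 at P18 against 1793465, 1476129 and 1213612. The 3 P18 libraries of Mbp were all above the 3 at 24 months but spread widely, and its log2 difference of -1.26 ± 0.60 passed the threshold only narrowly (limma, adjusted p = 0.0775). The call was lost when any one of these libraries other than P18 replicate 3 was left out, with limma adjusted p of 0.104 to 0.205.

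**Figure D2:**
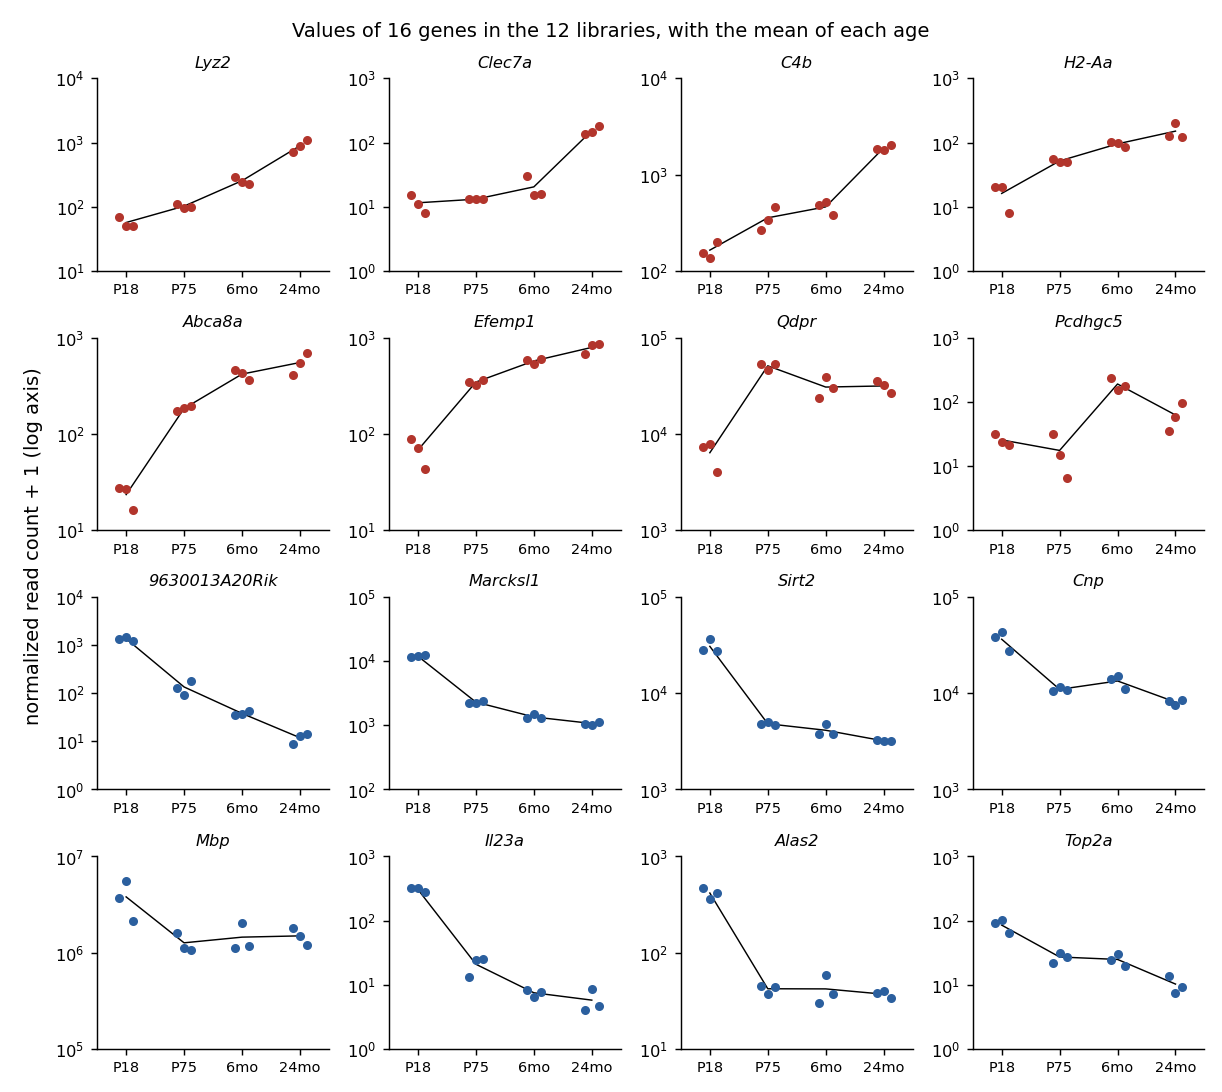
Normalized read count plus 1, on a log axis, of 16 genes in each of the 12 libraries by age, with a line through the mean of each age, red for genes higher at 24 months than at P18 and blue for genes lower. Lyz2 and 9630013A20Rik moved in steps that never overlapped, Sirt2 and Alas2 had reached most of their fall at P75, Clec7a and C4b made most of their rise after 6 months, and Pcdhgc5 was highest at 6 months.

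The 2 intermediate ages show whether a change between the ends was passed through in order. The mean log2 values of the 4 ages were in steady rising order in 2171 of the 14634 genes (14.8%) and in steady falling order in 1392 (9.51%). Among the genes called up between P18 and 24 months, 2116 (41.7%) were in rising order, and among those called down, 1318 (26.3%) were in falling order. The shares were larger for changes over 2-fold, with 1348 rises (63.7%) and 257 falls (44.1%). A wider gap between the ends leaves more room for the means between them, so larger shares follow in part from the selection. With the ends fixed, the steady order was the most frequent order of the means for rises, ahead of the 1050 genes (20.7%) that were highest at 6 months and otherwise in order. For falls it came second, after the 1515 genes (30.2%) that were lowest at 6 months and otherwise in order. Under quantile normalization 1804 called rises and 1771 called falls were in steady order. Means need not stand apart to be in order. In 473 genes (3.23%) every library of each later age was above every library of the age before, and in 95 genes (0.649%) below, together 3.88%. In 333 genes (2.28%) all 3 steps were called as rises, and in 29 (0.198%) all 3 as falls, together 2.47%. The single steps were called as rises in 25.9%, 31.2% and 16.6% of the genes and as falls in 22.9%, 29.4% and 12.7%.

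In both directions the last step was the smallest of the 3 by its median. The 3 steps of a gene add up to its whole change by construction, and in the genes that rose over 2-fold the median step up to P75 was 0.62, the next one up to 6 months 0.51 and the last one 0.25 on the log2 scale. In the genes that fell over 2-fold they were -0.72, -0.49 and -0.08. The medians of all genes for these steps were 0.02, 0.01 and 0.03. In 1566 (74.0%) of the 2-fold rises both intermediate means lay between the ends, whereas in 462 (21.8%) the mean at 6 months was above both. For the 2-fold falls, 326 (55.9%) had both intermediate means between the ends and 238 (40.8%) had a mean at 6 months below both.

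**Figure D3:**
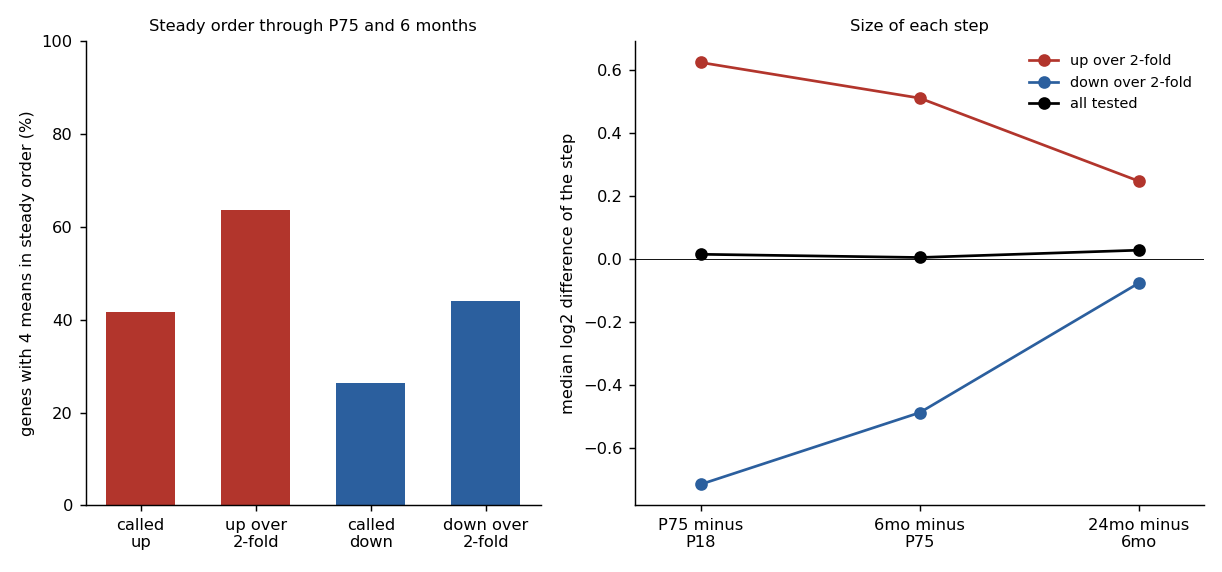
Left, percent of the genes called up or down between P18 and 24 months, and of those changed over 2-fold, whose 4 mean log2 values are in steady order; right, median log2 difference of each of the 3 steps for genes changed over 2-fold and for all 14634 genes. The shares are 41.7%, 63.7%, 26.3% and 44.1%, and the last step is the smallest of the 3 for both directions.

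Among the genes with a mean over 100 at P18 or 24 months whose libraries never overlapped from age to age, the largest rises were those of Lyz2, Efemp1, Prg4, Oxt and H2-Aa, and the largest falls those of 9630013A20Rik, Marcksl1, Kif19a, D0H4S114 and Ick. H2-Aa, the alpha chain of a major histocompatibility complex (MHC) class II molecule, whose span overlaps H2-Ab1, rose from 19.01, 19.2 and 7.03 at P18 over 54.1, 49.1 and 48.6 at P75 and 99.9, 98.5 and 84.7 at 6 months to 127, 199 and 123 at 24 months. D0H4S114, an older symbol of Nrep, which encodes a protein of regenerating neurons, fell from 13892, 14285 and 12399 over 6200.1, 5932 and 5646 and 3423, 3684 and 3752 to 2612, 2768 and 2729.8. Ick, a kinase of primary cilia, went from 1499.6, 1649.7 and 1263 at P18 to 303, 346 and 361 at 24 months.

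Other genes changed between the ends but left that range on the way. S100a5, a calcium-binding protein of the olfactory system, had 129.5, 14.7 and 10.04 at P18, 811, 584 and 759 at P75 and 194, 185 and 187 at 24 months, so that P75 was above both ends, and replicate 1 of P18 stood apart from the other two. Shank1, a scaffold of the postsynaptic density, and Ina, a neuronal intermediate filament, were lower at P75 than at either end and highest at 6 months. Shank1 had 696, 763 and 822 at P18, 475, 342 and 217 at P75, 2291, 1945 and 1803 at 6 months and 1068, 1188 and 1413 at 24 months. Pnmal2 took the same course, with 195, 157 and 87.3 at P75 and 1824, 1279 and 1309 at 6 months against 405, 413 and 492 at 24 months, as did the matrix protein gene Npnt. The difference between the ends was small in Pnmal2, at 0.49 ± 0.22, and it was not called without P18 replicate 1 (0.40; limma, adjusted p = 0.16) or 24-month replicate 3 (0.41; limma, adjusted p = 0.166). Under quantile normalization neither Pnmal2 (0.39; limma, adjusted p = 0.109) nor Npnt (0.29; limma, adjusted p = 0.191) was called. Pcdhgc5, a gamma protocadherin, and Clvs1, a lipid-binding protein of neurons, had their highest values at 6 months, with 238, 148 and 156 for Clvs1 against 33.3, 40.7 and 42.2 at P18 and 59.4, 63.8 and 76.8 at 24 months. Pcdhgc5 was not called between the ends without 24-month replicate 3 (0.83; limma, adjusted p = 0.133). Tekt4, a protein of cilia, was lowest at 6 months with 8.12, 8.88 and 10.7, against 137, 153 and 223 at P18 and 32.7, 18.4 and 25.9 at 24 months.

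Of 39 genes for proteins of compact and non-compact myelin, all compared, 15 rose (38.5%) and 16 fell (41.0%), against 34.7% and 34.3% of all genes, and their median log2 difference was -0.15, against -0.01 over all genes. Cnp, the cyclic nucleotide phosphodiesterase of non-compact myelin, whose span overlaps Dnajc7, fell by 2.15 ± 0.15 from 38563, 43229 and 27650.0 to 8291, 7569.6 and 8444. Cldn11, Mal, Tspan2 and Mog, which encode membrane proteins of the sheath, fell as well, by 1.40, 1.38, 1.27 and 1.17 on the log2 scale. In the opposite direction, Qdpr, the enzyme that recycles the cofactor tetrahydrobiopterin, rose from 7228, 7925 and 3981 at P18 to 35866, 32089 and 26752 at 24 months, a log2 difference of 2.36 ± 0.22. The cytokine gene Il33 rose from 517, 498 and 347 to 2461, 2095 and 2032 and the lipid carrier gene Apod from 7706, 6609.9 and 4871 to 25761, 27474 and 28250.3. Apod was in strict rising order over the 4 ages, while Qdpr was highest at P75, with 53662, 46635 and 53037. Of the 39 genes, 6 were in steady rising and 5 in steady falling order. For every list and family that follows, the same 34.7% and 34.3% of all genes are the background.

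The genes of newly formed oligodendrocytes fell almost as a whole. Of the 25 compared, 22 fell and 1 rose, with a median of -0.83, and 10 of the falls were over 2-fold. Ust and Sema5a were not called, and Casr was under the limit of 10 and not compared. Beside 9630013A20Rik and Kif19a, Gpr17, the receptor that marks cells on the way to myelination, fell by 2.71 ± 0.22 from 1592, 1490.3 and 1160.1 to 136, 221 and 321. Its span overlaps Lims2, which fell too. Bmp4, a growth factor made by these cells, went from 156, 172 and 245 to 56.5, 55.1 and 63.9 (log2 -1.66 ± 0.17). Enpp6, a choline phosphodiesterase that is widely used to find newly forming oligodendrocytes, had 210.3, 186 and 132 against 94.1, 141 and 143. Its ages overlapped, and its log2 difference of -0.48 ± 0.19 was called (limma, adjusted p = 0.0333), but not without P18 replicate 1 (-0.34; limma, adjusted p = 0.154) or 24-month replicate 1 (-0.28; limma, adjusted p = 0.191). The gene that rose was Tmem108, by 0.35 ± 0.09. In 8 of the 25 genes the means fell in steady order.

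Of 25 genes of oligodendrocyte precursors, 7 rose (28.0%) and 11 fell (44.0%), against 34.7% and 34.3% of all genes, with a median of -0.21. Pdgfra, the growth factor receptor that defines these cells, had 638, 629 and 779 at P18 and 769, 767 and 708 at 24 months and was not called, though it was without P18 replicate 3 (0.24; limma, adjusted p = 0.0338). Cspg4, the NG2 proteoglycan, had 149, 199 and 212 and 137, 154 and 187 and was called only when P18 replicate 1 (-0.38) or 24-month replicate 3 (-0.35) was left out or under quantile normalization (-0.42). The lineage transcription factor genes Olig1 and Olig2 fell, Olig1 from 10807, 11096 and 10660.0 to 2269, 2345 and 2684 and Olig2 from 1813, 1615 and 1785 to 403, 510.3 and 563. Their log2 differences were -2.16 ± 0.09 and -1.83 ± 0.11, and no library of one age reached those of the other. In contrast the matrix and membrane glycoprotein genes Cspg5, Ptprz1 and Tnr rose, by 1.29 ± 0.08, 1.13 ± 0.13 and 1.09 ± 0.18.

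**Figure D4:**
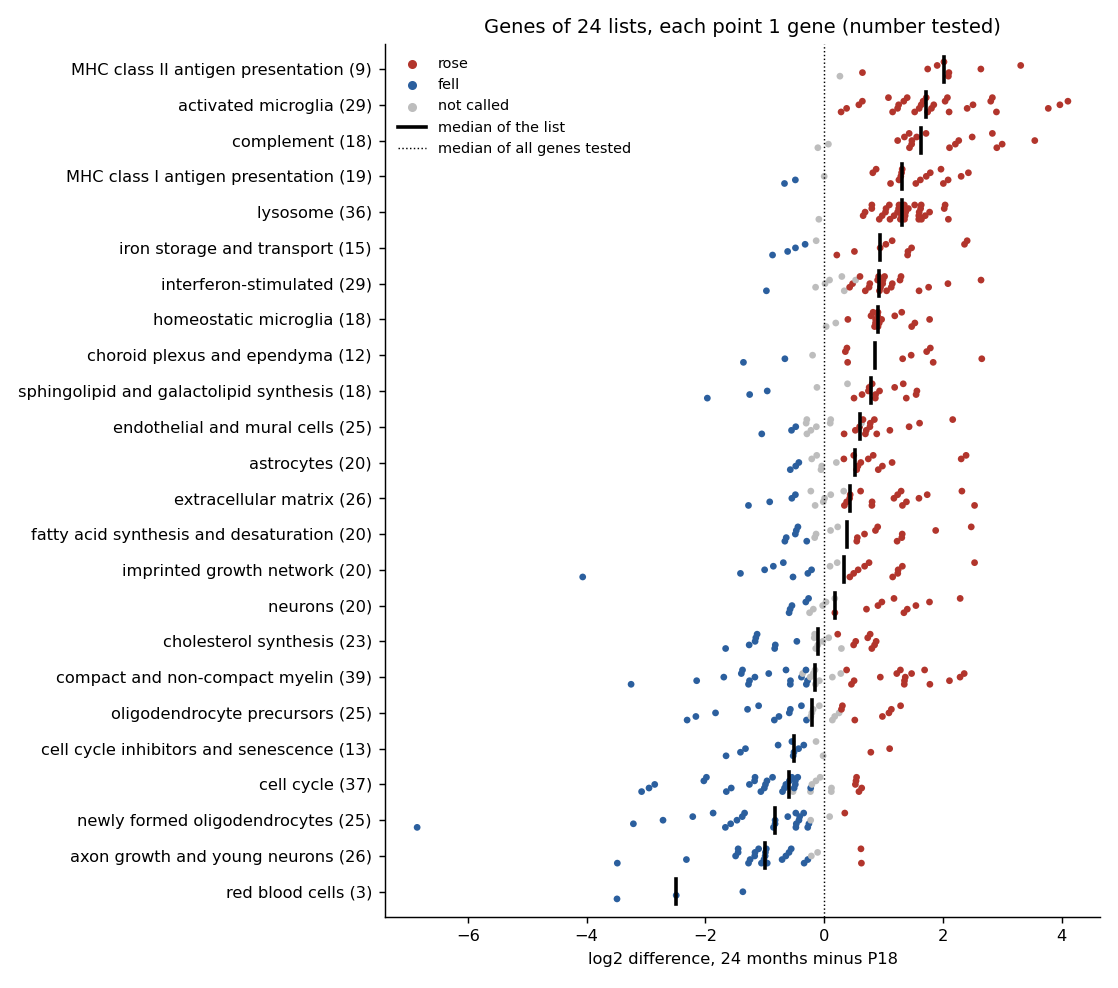
Log2 difference of 24 months minus P18 for each gene compared in 24 lists, 1 point a gene, with the number compared in brackets, a bar at the median of the list and a dotted line at the median of all genes. All 29 activated microglia genes compared lie to the right of 0 as rises, and 22 of 25 genes of newly formed oligodendrocytes lie to the left as falls.

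Genes of the cell cycle fell. Of 37 compared, 25 fell, 12 of them over 2-fold, and 5 rose, with a median of -0.59. Top2a, the topoisomerase that untangles chromosomes (chr11:98854257-98885503, minus strand, 35 merged exons), had 90.3, 99.4 and 62.3 at P18 and 12.9, 6.49 and 8.33 at 24 months (log2 -3.07 ± 0.28; limma, adjusted p = 8.66e-08). Mki67, the proliferation antigen Ki-67, went from 87.9, 72.3 and 103 to 11.9, 9.73 and 12.03, and the mitotic kinase gene Cdk1 from 48.7, 57.6 and 53.2 to 12.9, 14.1 and 10.2. The genes that rose were Mcm2, Mcm4, Mcm6, Mcm7 and Rrm1, which serve DNA replication and nucleotide supply, with log2 differences of 0.53 to 0.63. The D-type cyclin genes Ccnd1 and Ccnd2, which are also used outside division, fell by 0.44 and 0.59.

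The promoters of Top2a and Cdk1 are shown because these genes fell together and carry short motifs known from genes of the late cell cycle, the CCAAT box and the cell cycle homology region TTTGAA. The sequences are the 250 bases before the RefSeq transcription start (GRCm38.p6), found once each in NCBIM37 at chr11:98885504-98885753, minus strand, and chr10:68815661-68815910, minus strand. Capitals mark the letters of CCAAT and TTTGAA on either strand.
Top2a: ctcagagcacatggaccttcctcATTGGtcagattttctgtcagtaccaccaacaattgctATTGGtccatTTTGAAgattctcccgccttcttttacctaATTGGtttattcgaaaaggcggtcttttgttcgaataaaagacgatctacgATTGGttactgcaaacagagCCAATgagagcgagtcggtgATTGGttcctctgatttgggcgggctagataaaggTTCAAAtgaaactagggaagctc
Cdk1: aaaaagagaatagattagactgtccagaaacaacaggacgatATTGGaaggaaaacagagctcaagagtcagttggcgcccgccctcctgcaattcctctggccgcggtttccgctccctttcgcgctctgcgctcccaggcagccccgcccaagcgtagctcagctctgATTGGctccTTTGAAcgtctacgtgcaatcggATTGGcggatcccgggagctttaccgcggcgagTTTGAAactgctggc
CCAAT was found in 24 (80.0%) of the 30 cell cycle genes with a known promoter and in 40.5% of the 10303 genes compared that had one. It was not particular to falls, with 4 of the 4 rising and 16 of the 19 falling cell cycle genes. Nor was it particular to this list, with 13 of 14 genes of cholesterol synthesis (92.9%) and 11 of 16 of MHC class I (68.75%). TTTGAA was found in 9 (30.0%) of the 30, against 12.55% of the 10303. Among the 9 were the falling genes Mki67, Top2a, Cdk1 and Ube2c but also Mcm2, which rose. A match describes the letters of these windows and nothing more.

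Of 13 genes of cell cycle inhibitors and senescence that were compared, 9 fell and 2 rose, with a median of -0.51. Cdkn1a, the inhibitor p21, fell from 765, 746 and 1127 to 290.3, 283 and 249.9, a log2 difference of -1.65 ± 0.16, and Cdkn1c, the imprinted inhibitor p57, from 463, 382 and 373 to 139.7, 138 and 179.6. Cdkn1b, the inhibitor p27, fell by 0.52. Cdkn2a, which encodes the senescence marker p16, Cdkn2b, Gdf15 and Il6 were under the limit of 10 and were not compared. Among the genes that rose was Igfbp5, by 0.79 ± 0.11.

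Of 23 genes of cholesterol synthesis, 8 rose and 8 fell, 34.8% each and so near the 34.7% and 34.3% of all genes, with a median of -0.11. The falls were in enzymes that make isoprenoids from acetyl-CoA, in lanosterol synthase (Lss) and in the sterol carrier gene Stard4. Mvd, mevalonate diphosphate decarboxylase, went from 1123, 1069 and 885 at P18 to 342, 296 and 330.5 at 24 months, Fdps, farnesyl diphosphate synthase, from 4359, 4272 and 4003 to 1684, 1853 and 1725, and the acetyl-CoA acetyltransferase gene Acat2 from 2167, 1975 and 1864 to 915, 893 and 867. Their log2 differences were -1.66 ± 0.12, -1.26 ± 0.10 and -1.16 ± 0.08, and Mvk, Pmvk, Idi1 and Lss fell by 0.82 to 1.15. The rises were in 7 enzymes and a regulator that sit in the membrane of the endoplasmic reticulum. Among them, the later enzymes Sc4mol (now Msmo1) and Ebp and the sterol sensor gene Insig1 rose by 0.88 ± 0.15, 0.85 ± 0.11 and 0.80 ± 0.09. Hmgcs1 was listed at 0 in every library and was not compared. The sterol regulatory element letters TCACNCCAC were in none of the 14 promoters of the pathway and in 1.27% of the 10303.

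Of 18 genes of sphingolipid and galactolipid synthesis, 13 rose and 3 fell, with a median of 0.78. The 3 that fell act in making the galactolipids of myelin. Ugt8a, the galactosyltransferase that makes galactosylceramide, had 10949, 9815 and 5029 at P18 and 2622, 3688 and 4109.9 at 24 months, with P18 replicate 3 nearest to the older mice. Gal3st1, which sulfates it to sulfatide, went from 1353, 1277 and 773 to 274, 282 and 286, and Fa2h, which hydroxylates its fatty acid, from 3019, 2867 and 2091 to 1145, 1381 and 1557. The log2 differences were -1.25 ± 0.22, -1.97 ± 0.17 and -0.96 ± 0.13. Among the rises were Kdsr, an enzyme of ceramide synthesis, and Ugcg, which makes glucosylceramide, by 1.38 ± 0.08 and 1.33 ± 0.09, and Ormdl1, a brake on sphingolipid synthesis, by 1.55 ± 0.16.

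Of 20 genes of fatty acid synthesis and desaturation, 10 rose (50%) and 6 fell (30%), with a median of 0.39. Among all genes 34.7% rose and 34.3% fell. Fasn, fatty acid synthase, had 3907, 3859 and 3728 against 3372, 3296 and 3810.0 and was not called except without 24-month replicate 3 (-0.20; limma, adjusted p = 0.0708) or with a total that leaves out Mbp (-0.20; limma, adjusted p = 0.0572). Scd3, a stearoyl-CoA desaturase with close paralogs, rose from 122, 168 and 124 to 889.6, 729.8 and 689.6, and the enzymes of fatty acid elongation Hsd17b12 and Tecr rose by 1.31 each. Acaca, which makes malonyl-CoA, fell by 0.49, and Thrsp and the elongase gene Elovl1, which overlaps Cdc20, by 0.66 and 0.64.

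Genes of microglia rose. All 29 genes of activated microglia that were compared rose, 25 of them over 2-fold, with a median of 1.72. Of the 29, 9 also stand in another list, and the other 20 all rose. Itgax, Cst7 and Ccl4, which are among the 25, reached the limit of 10 only through the libraries of 24 months. Their rise was therefore set by the filter, and Msr1 was under the limit. The other 26 all rose, with a median of 1.69. In the same way the filter set the rises of Nlrc5 and H2-Ob among the genes of antigen presentation and of Itgax among those of complement. Through P18 it set the falls of Ccnb1, Slc4a1 and H19 in the lists of the cell cycle, red blood cells and imprinted genes. Itgax, the integrin CD11c, was at 5.94, 5.65 and 2.01 at P18 and 23.8, 41.1 and 47.2 at 24 months. Gpnmb, a lysosomal membrane glycoprotein of phagocytes, rose from 33.3, 19.2 and 46.2 to 178, 230.3 and 268, by 2.81 ± 0.27 (limma, adjusted p = 1.79e-07). Over the 29 genes the last of the 3 steps between the ages had the largest median, with median steps of 0.40, 0.33 and 1.03. These medians include Itgax, Cst7 and Ccl4, for which the filter favoured a large last step. Of 18 genes of homeostatic microglia, 16 rose and none fell, with a median of 0.90. The receptor gene P2ry12 had 862, 806 and 525 at P18 and 1383, 1308 and 1331 at 24 months, and Tmem119 had 295, 295 and 219 and 509, 497 and 519. Neither P2ry12 nor Tmem119 overlapped between the ages, with rises of 0.91 and 0.93. Aif1, which encodes IBA1, and the transcription factor gene Sall1 were not called. The summed normalized read count of the 16 homeostatic genes found in no other list was 4508 to 6149 at P18 and 8935 to 9929 at 24 months. The part of microglial content in the immune and lysosomal rises was not tested.

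Of 18 complement genes compared, 16 rose, all over 2-fold, and none fell, with a median of 1.64. Beside C4b, the recognition subunits C1qa and C1qb, which microglia make, rose by 1.72 ± 0.10 and 1.56 ± 0.12, C1qa from 708, 690.4 and 701 to 1934, 2410.0 and 2615. C3, the central component, had 32.1, 15.8 and 14.1 at P18 and 131, 169.8 and 156 at 24 months. Cfb and Cd59a were not called.

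Antigen presentation genes rose in both classes. Of 9 MHC class II genes compared, 8 rose and none fell, with a median of 2.02. Cd74, the invariant chain, went from 30.9, 44.1 and 41.2 to 202, 305 and 235, and Ctss, the protease that trims it, from 1403, 1394 and 1121 to 4761, 5706 and 6272. Ciita, the transactivator of the class, was not called. It lay just over the limit of 10, with means of 7.78 at P18 and 9.56 at 24 months, so a change could be missed. Of 19 MHC class I genes, 16 rose and 2 fell, with a median of 1.31. B2m, the light chain beta-2-microglobulin (chr2:121973422-121978819, plus strand, 4 merged exons, overlapping Patl2), rose 3.29-fold from 2082, 1985 and 1891 to 5827, 7146 and 6714 (log2 1.72 ± 0.08; limma, adjusted p = 2.8e-10). The heavy chain gene H2-K1, one of a family of near-identical genes whose reads may be shared, rose from 273, 252 and 257 to 1028, 1206 and 1107, and the peptide transporter genes Tap1 and Tap2 by 2.31 ± 0.28 and 2.43 ± 0.13. B2m, H2-K1 and Tap2 were in strict rising order over the 4 ages. The falls were the proteasome genes Psmb10 and Psme1, by 0.67 and 0.49, while Psme2 was not called.

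The promoters of B2m and the heavy chain gene H2-T23, which rose by 1.62, are shown because both hold the core of the interferon-stimulated response element, searched as 2 runs of GAAA with any 2 bases between them, in the 250 bases before the RefSeq start (GRCm38.p6). They were found once each in NCBIM37 at chr2:121973173-121973422, plus strand, and chr17:36169647-36169896, minus strand, and capitals mark the motif on either strand.
B2m: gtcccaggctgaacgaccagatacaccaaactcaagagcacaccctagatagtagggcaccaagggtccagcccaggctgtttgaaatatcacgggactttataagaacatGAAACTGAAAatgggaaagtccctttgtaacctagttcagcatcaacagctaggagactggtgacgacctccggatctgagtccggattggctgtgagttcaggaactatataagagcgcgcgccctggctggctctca
H2-T23: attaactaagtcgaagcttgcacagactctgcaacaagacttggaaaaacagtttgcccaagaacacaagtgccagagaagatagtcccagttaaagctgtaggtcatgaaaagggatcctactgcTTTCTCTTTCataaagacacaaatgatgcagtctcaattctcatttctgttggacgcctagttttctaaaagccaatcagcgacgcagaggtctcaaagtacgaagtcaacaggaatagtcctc
These were the 2 with the motif among the 16 MHC class I genes with a promoter (12.5%), against 3.03% of the 10303 genes compared. This motif can overlap TTTGAA by its letters.

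Of 29 interferon-stimulated genes compared, 22 rose and 1, Mx2, fell, with a median of 0.92, and Mx2 was not called without 24-month replicate 3. Ifit1 had 76.0, 58.8 and 101 at P18 and 165, 175 and 168 at 24 months, and Ifit2 had 246, 238 and 219 and 325, 337 and 287. Both rose, by 1.13 ± 0.25 and 0.43 ± 0.12. The largest rises among genes with a mean over 100 at one of the 2 ages were those of Lgals3bp, a secreted glycoprotein, by 2.64 ± 0.15, of the antiviral tether gene Bst2 by 1.76 ± 0.17 and of Ifi27l2a, which overlaps Ifi27l2b, 3.03-fold. Gbp2, a guanylate-binding protein, stayed just under that level and rose by 2.08 ± 0.27. Isg15, Irf7 and Rsad2, which usually stand for a strong interferon response, were not called, with log2 differences of -0.14, 0.53 and 0.01.

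Lysosome genes rose nearly without exception. Of 36 compared, 35 rose, 29 of them over 2-fold, and none fell, with a median of 1.31. The means of 29 of the 36 were in steady rising order, and 18 of the 36 never overlapped from age to age. The shares over all genes were 14.8% and 3.23%, but only genes that rise can be in rising order. Among all called rises 41.7% were in steady order, and among rises over 2-fold 63.7%. Strict rising order held for 473 of the 5077 called rises and for 425 of the 2116 rises over 2-fold. Ctsb, a cathepsin, had 6075, 6326 and 6299 at P18, 9883, 10784 and 10599 at P75, 16931, 15558 and 14508 at 6 months and 17156, 18803 and 20930.1 at 24 months. Ctsz, another cathepsin, rose 4.10-fold from 421, 417 and 402 to 1494, 1687 and 1945, and Gaa, the enzyme that degrades lysosomal glycogen, 4.06-fold from 1395, 1503 and 1656 to 5867, 5958 and 6674. Their log2 differences were 2.04 ± 0.09 and 2.02 ± 0.10. Ctsa rose by 1.25 ± 0.08, and Npc2, a cholesterol carrier, was the one not called. Without P18 replicate 3, 1 lysosome gene fell. Of the 29 lysosome genes in no other list, 28 rose.

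Of 15 genes of iron storage and transport compared, 10 rose and 4 fell, with a median of 0.94. The ferritin chains went apart. Fth1, the heavy chain, which has many pseudogenes, had 198900.0, 221953 and 91427 at P18 and 1153021, 798462 and 656046 at 24 months, a rise of 2.41 ± 0.39, while Ftl1, the light chain, fell by 0.87 ± 0.14 from 10065, 10653 and 7458 to 5168, 4776 and 5311. Neither chain overlapped between the ages. Trf, the transferrin that oligodendrocytes secrete, rose from 10471, 9536 and 4713 to 19204, 20054 and 26129.6, and the ferroxidase gene Cp from 39.2, 49.7 and 68.3 to 227, 301 and 279.6. The iron sensors Aco1 and Ireb2 fell by 0.62 and 0.48.

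Among other cell types of the fraction, genes of axon growth and young neurons fell. Of 26 compared, 22 fell, 12 of them over 2-fold, and 2 rose, with a median of -0.99. Gap43, the protein of growing axons, went from 10201, 9714 and 10918 to 5215, 5077 and 4959, Dcx, the microtubule protein of migrating neurons, from 763, 635 and 575 to 363, 316 and 329.5 and Tmsb10, an actin-binding peptide, from 8591, 7869 and 7892 to 3003, 2839 and 2812. Gap43, Dcx and Tmsb10 differed by -1.01 ± 0.08, -0.96 ± 0.12 and -1.49 ± 0.14, without overlap. Mdk, a growth factor, and the adhesion molecule gene Ncam1 rose, by 0.63 and 0.62.

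Of 20 genes of mature neurons, 10 rose (50%) and 5 fell (25%), against 34.7% and 34.3% of all genes. Their median was 0.18, and 3 fell when each library was scaled to the same total. Syt1, the calcium sensor of synaptic vesicles, rose from 2808, 3079 and 3875 to 13645, 16051 and 17934, by 2.29 ± 0.13, and most of it came between P75, at 4142, 3940.5 and 3470.1, and 6 months, at 22037, 18319 and 18059. Slc32a1, the vesicular transporter of inhibitory neurons, and the potassium channel gene Kcna4 rose by 1.77 ± 0.12 and 1.55 ± 0.11. Snap25, a vesicle fusion protein, had 109834, 97316 and 119892 against 92028, 92731 and 90084 and was not called, except lower at 24 months under quantile normalization (-0.45; limma, adjusted p = 0.0661) and with DESeq2 on the recovered reads (-0.25; DESeq2, adjusted p = 0.00991). Rbfox3, which encodes the nuclear antigen NeuN, Tubb3 and Syn1 fell by 0.59, 0.57 and 0.54. The summed count of the 20 genes was 239892 to 288019 at P18 and 268673 to 289099 at 24 months.

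Of 20 astrocyte genes, 12 rose and 3 fell, with a median of 0.52. Gfap, the filament protein of astrocytes, had 14618, 11249 and 6991 at P18 and 9039.7, 8344 and 9865 at 24 months, with the highest and the lowest value both at P18, and was not called. Aqp4, the water channel of astrocyte endfeet, was called at 0.50 ± 0.25 with overlap between the ages (limma, adjusted p = 0.0979). Both rested on P18 replicate 3, without which Gfap was called lower at 24 months (-0.50; limma, adjusted p = 0.00632), Aqp4 was at 0.05 and not called, and 5 astrocyte genes fell. Aqp4 was also not called without 24-month replicate 2 or 3 (0.45 and 0.43). The call of Aqp4 was lost as well with edgeR (0.39; edgeR, adjusted p = 0.174) and DESeq2 (0.39; DESeq2, adjusted p = 0.298). In a fit of only P18 and 24 months it was lost too (0.50; limma, adjusted p = 0.182). The same held with a mean over 100 required, with no filter and with a total that leaves out Mbp. Serpina3n, a protease inhibitor of reactive astrocytes, rose from 251, 183 and 261 to 1022, 1055 and 1364, by 2.31 ± 0.14 (limma, adjusted p = 1.64e-09), and the laminin receptor gene Itga7 by 1.14 ± 0.10. Aldoc, Aldh1l1 and Sox9 fell by 0.57, 0.48 and 0.43.

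Of 25 genes of endothelial and mural cells, 14 rose and 3 fell, with a median of 0.60. Vwf, von Willebrand factor, went from 28.5, 30.5 and 40.2 to 152, 176 and 127 and Vtn, vitronectin, from 355, 349 and 289 to 824, 1070.4 and 1157, while Cldn5, the claudin of the blood-brain barrier, and Ly6c1 fell by 0.48 and 0.55. Without P18 replicate 1, 5 genes of this list fell, and 6 under quantile normalization. Of 12 red blood cell genes 3 could be compared and all 3 fell, Alas2 and the anion exchanger gene Slc4a1 among them. The 4 alpha and beta globin genes in the table were listed at 0 in every library. Of 12 choroid plexus and ependyma genes, 9 rose and 2 fell, with a median of 0.86, and Ttr, the transthyretin of the choroid plexus, rose from 14188, 12097 and 14034 to 46264, 41611 and 45337. The summed count of these 12 genes was 13053 to 15159 at P18 and 43206 to 47877 at 24 months. The part of choroid plexus tissue in other rises was not tested.

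Of 26 extracellular matrix genes, 16 rose and 4 fell, with a median of 0.43. The small proteoglycan genes Dcn and Lum rose, Dcn from 263, 203 and 168 to 1121, 1282 and 1224 and Lum from 32.1, 27.1 and 16.1 to 132, 133 and 110.2. Col6a1, a chain of collagen VI, rose by 1.74 ± 0.33, from 196, 191 and 675 to 1009, 1049.9 and 889, with P18 replicate 3 far above the other two. The fibrillar collagen gene Col3a1 fell by 0.92, Nid1, a basement membrane protein, by 1.27 and Tnc, the embryonic matrix protein tenascin-C, by 0.48, while Col1a1 and Col1a2 were not called. The call of Tnc was lost with each library scaled to the same total (-0.41; limma, adjusted p = 0.109) and without P18 replicate 1 or 2 or 24-month replicate 1, with limma adjusted p of 0.182 to 0.255, and Col1a2 was called at 0.34 without P18 replicate 1 (limma, adjusted p = 0.0645). Of 20 imprinted genes of a growth network, 10 rose (50%) and 8 fell (40%), against 34.7% and 34.3% of all genes, with a median of 0.33. H19, a maternally expressed noncoding RNA, went from 54.7, 40.7 and 24.1 at P18 to 0, 5.41 and 0.93 at 24 months. It reached the limit of 10 only through the P18 libraries, so its fall was set by the filter. Of the other 19 genes, 10 rose and 7 fell, with a median of 0.43. Igf2, a growth factor and the neighbour of H19, rose by 0.68 ± 0.12 from 1403, 1085 and 1160.1 to 1749.5, 1983 and 2101.

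A feature that runs across these lists was noticed after the values were seen and is given as a description. From the GENCODE protein-coding transcripts, 14146 of the 14634 genes could be given the highest mean hydropathy (Kyte-Doolittle scale) over a window of 19 residues. A value of 1.6 or more was taken as a hydrophobic stretch, which membrane proteins have and signal peptides of secreted proteins can have too. Of 5176 genes with such a stretch, 63.2% rose and 14.5% fell, with a median log2 difference of 0.62. Of 8970 genes without one, 18.9% rose and 45.6% fell, with a median of -0.19. A stretch was found in 36.6% of all genes, in 81.1% of those that rose over 2-fold and in 20.7% of those that fell over 2-fold. It was found in 88.9% of the genes in strict rising order and in 8.51% of those in strict falling order. At a stricter value of 2.0 the shares were 22.97% of all genes, 64.7% of the 2-fold rises and 11.2% of the 2-fold falls. Outside the 24 lists the split was similar, with 62.7% rises among 4896 genes with a stretch and 18.5% among 8749 genes without.

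The difference between the 2 classes rose from age to age without overlap of the libraries. As the median deviation of a gene's log2 value from its mean over the 12 libraries, genes with a stretch minus genes without stood at -0.49, -0.43 and -0.41 at P18, between -0.13 and -0.12 at P75, between 0.19 and 0.29 at 6 months and at 0.30, 0.37 and 0.41 at 24 months. Within each of 4 classes of transcript length with equal numbers of genes, 56.9% to 65.4% of the genes with a stretch rose and 11.9% to 25.4% of those without. The same division was seen in some lists that held both rises and falls. Of the neuronal genes, 8 of 9 with a stretch rose, and of the 11 without 2 rose and 5 fell. Of the astrocyte genes, 11 of 12 with a stretch rose and 1 of 8 without. In cholesterol synthesis 8 of 16 with a stretch rose and 1 fell, while all 7 without fell. It was not seen in every list. The genes of compact and non-compact myelin had 7 rises and 10 falls among 18 with a stretch, Cldn11, Mal, Mog and Tspan2 among the falls. Of the genes of newly formed oligodendrocytes, 1 rose and 8 fell among 11 with a stretch, and of those of axon growth 2 rose and 3 fell among 5. Of the interferon-stimulated genes, 6 of 9 with a stretch rose and 16 of 20 without. Those of activated microglia and the lysosome rose in both classes, as did Lyz2, which has no such stretch by this measure.

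**Figure D5:**
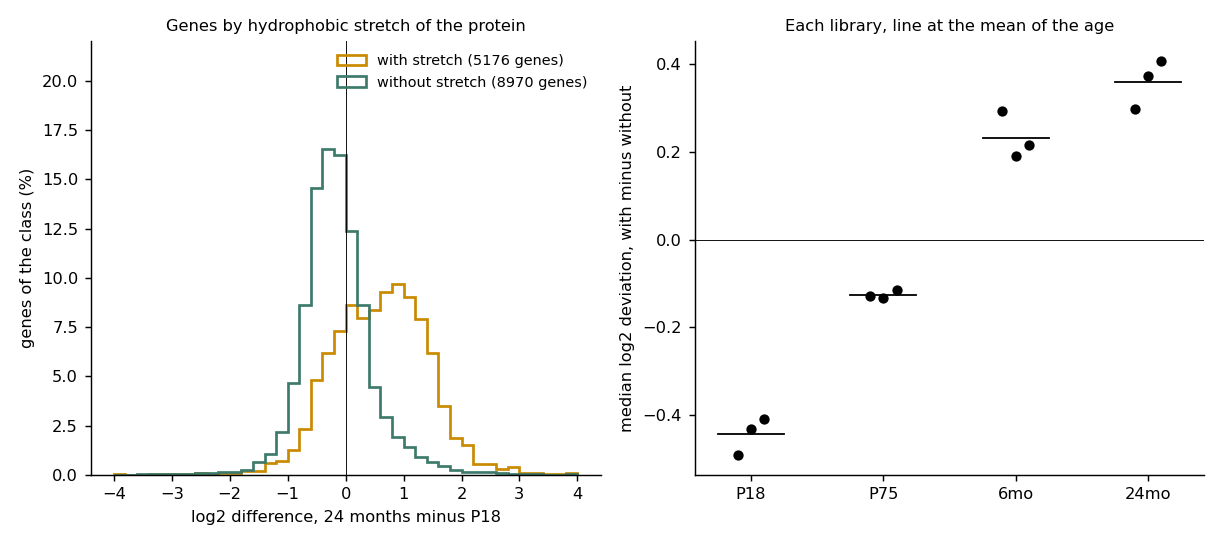
Left, percent of the genes with (5176) and without (8970) a hydrophobic stretch in each bin of the log2 difference of 24 months minus P18, with values beyond 4 placed in the outermost bins; right, median log2 deviation of genes with a stretch minus genes without in each library by age. The 2 classes have medians of 0.62 and -0.19, and the 3 libraries of each later age lie above those of the age before, from -0.49 at P18 to 0.41 at 24 months.

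Families picked by symbol after the values were seen are also given as a description. All 19 beta protocadherin genes compared rose, with a median of 2.22, and 14 of them in steady order. All 19 gamma protocadherin genes rose too, with a median of 1.84 (1.24 under quantile normalization), but none was in steady order. The summed count of the 22 gamma genes in the table was only 232 to 272 at P18 and 154 to 236 at P75. It was highest at 6 months, with 1361 to 2017, and was 606 to 821 at 24 months. The changes of the gamma genes thus start from low values at P18. Beta and gamma protocadherins are neuronal adhesion molecules encoded in clusters of similar genes with shared exons, so reads may have been lost or shared between them. Of 272 solute carrier genes 205 rose and 28 fell, of 189 Tmem genes 141 rose and 24 fell, and of 76 potassium channel genes 62 rose and 6 fell, with medians of 0.85, 0.80 and 0.85. These are families of membrane proteins, and of all genes with a hydrophobic stretch 63.2% rose and 14.5% fell, with a median of 0.62. In the opposite direction, 69 of 76 mitochondrial ribosomal protein genes fell and 1 rose, with a median of -0.51. Of the nuclear genes of the respiratory chain, 29 of 41 NADH dehydrogenase genes, 8 of 8 cytochrome bc1 genes, 14 of 25 cytochrome c oxidase genes and 14 of 17 ATP synthase genes fell and none rose. Proteasome subunits, with 27 falls and 2 rises among 39, and Rab GTPases of membrane traffic, with 39 falls and 5 rises among 61, mostly fell. Cytosolic ribosomal protein genes had 25 rises and 12 falls among 75 and a median of 0.16, where 34.7% of all genes rose and 34.3% fell. No list or family changed the sign of its median under the 3 other scalings tried.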

How the data were processed

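The deposited values are a normalized signal, made by the authors as the read count of each gene divided by a DESeq size factor of the library, without logs or a correction for length. The reads were aligned to mm9 with TopHat2 2.0.8 and counted with HTSeq 0.5.4p1 per the labels' processing notes, which also name SAMtools 0.1.19, while the study's methods give a later release of TopHat. The gene annotation and the strand setting of the counting are not given in the sources used here. Each library stems from a separate mouse. The low values of every library were whole multiples of the value of 1 read, within 0.1 read, which gave 20299052 to 27214384 reads on genes for the 12 libraries. Genes whose mean over the 12 libraries was 10 or more were fitted together as log2(value + 1) with limma 3.58.1 in R 4.3.3 (1 mean per age, empirical Bayes with a trend), with Benjamini-Hochberg adjustment over all 14634 genes, two-sided, at a false discovery rate of 0.1. Steady order was read from the 4 mean log2 values, and strict order from every library.

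The genes compared, the lists and the tests were chosen with earlier results of these data known. Genes were named as the 10 largest rises and falls with a mean over 100 at one of the 2 ages and no overlap of libraries, the 5 largest of each in strict order, the first 2 members and the 3 largest called rises and falls with a mean over 100 of each list, members that go against a count, the 5 genes farthest outside the range of the ends at P75 and at 6 months, and Mbp. Cldn11, Mal, Mog, Tspan2, Cdk1, Ube2c, H2-T23, Igf2 beside H19 and the cholesterol genes beyond Mvd, Fdps and Acat2 were added after their values were seen. Gene positions, spans that overlap and coding sequences came from GENCODE vM1 on NCBIM37 (mm9), and promoters from RefSeq. Python 3.11.15, pandas 2.3.3, numpy 2.4.6, Biopython 1.88 and matplotlib 3.10.9 were used for the tables and figures, and the fits were tested on simulated data. As alternatives, other pseudocounts, filters, scalings, thresholds and samples, a replicate block, and edgeR 4.0.16 and DESeq2 1.42.0 on the recovered reads were tried. A few genes are not reported here.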

Additional observations from a re-analysis of the deposited data

How the results depend on the processing

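The comparison of 24 months with P18 called 9320 to 10610 genes, and 2222 to 3367 over 2-fold, under other pseudocounts, fits, tools, scalings and no filter, where edgeR gave 10089 and DESeq2 9822 genes. With a mean over 100 required, 1776 genes changed over 2-fold and 351 of them fell, since fewer genes were tested, and 3 cell cycle genes fell. Leaving out each library in turn gave 9293 to 10112 called genes (4707 to 5103 rises and 4586 to 5009 falls), 2651 to 2826 over 2-fold (2035 to 2218 rises and 572 to 617 falls), and 1973 to 2247 rises and 1210 to 1498 falls in steady order. Steady order in every library held for 473 rises and 95 falls, and with each step called for 333 rises and 29 falls, because these definitions are stricter. The median of all genes moved from -0.01 to 0.07 with each library scaled to the same total, to -0.08 with a total that leaves out Mbp, a scaling chosen after seeing the data, and to -0.12 under quantile normalization. Mbp, not called in several settings, was at 0 under quantile normalization, where the highest gene of each library is set equal. The sign turned in 3 genes that were not called, whose values with 1 library left out ranged from -0.466 to 0.0675 for Col1a1, from -0.501 to 0.0311 for Gfap and from -0.114 to 0.336 for Col1a2, the ends of each range being those without P18 replicate 1 and without P18 replicate 3. The cause was not tested. With the replicate number as a block, 10005 genes were called (5052 rises and 4953 falls), 2699 over 2-fold, and 2112 and 1313 were in steady order. The numbers do not pair the mice (correlations of same-numbered deviations -0.05, 0.03 and 0.02), and of the named genes only Aqp4 lost its call under the block. The depth of 20299052 reads or more limits genes of a few reads, such as Il23a and H19 at 24 months.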
